A study of Mus musculus with 6 samples.

Results

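Collagen and laminin chains are the subunits of the main structural proteins of the extracellular matrix, and 29 of the 14147 genes in the expression table of these mouse astrocyte cultures encode one. They were taken by symbol alone, as every row named Col, digits, a and digits, or Lama, Lamb or Lamc with 1 digit. The GENCODE M21 annotation holds 55 protein-coding genes with such a symbol, and the other 26 were not analysed here. By collagen type, 7 of the 29 are fibrillar chains (types I, III, V and XI). Another 13 are basement membrane chains, namely the type IV collagens and the laminins. The remaining 9 are other collagens, of types VI, VII, VIII, XII, XIV, XVI and XVIII.

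The cells were wild-type primary mouse astrocytes, given either human AQP4-IgG, an antibody against the water channel aquaporin-4 that marks neuromyelitis optica, or a human Control-IgG. Each group had 3 RNA-seq libraries, numbered 1 to 3, and the labels give 24 h as the time in both. The series title also speaks of conditioned medium, and the labels do not say in what form the IgG reached the cells, nor whether each library had a culture or animal of its own. The p-values therefore measure the spread between libraries, which may be technical. Values are FPKM, that is, reads or fragments relative to exon length and library size, and recovered library totals ranged from 17.9 to 20.6 M reads.

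A collagen molecule is a helix of 3 chains. The fibrillar types pack into banded fibrils, type IV forms the network of basement membranes, and many of the remaining types attach to or link these structures. Laminins are cross-shaped trimers of an alpha, a beta and a gamma chain that initiate basement membrane assembly and bind integrins and dystroglycan on the cell surface. In the brain, astrocyte end-feet rest on the basement membranes around vessels and under the pia, where dystroglycan links laminin to the complex that holds aquaporin-4 in place. Fibrillar collagens are otherwise typical of meningeal and perivascular fibroblasts.

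The astrocyte label was checked against marker genes. Of 10 astrocyte markers 9 were in the table, with Gjb6 not analysed here. Their summed level ranged from 349.03 to 392 FPKM in AQP4-IgG and from 303 to 348.5 FPKM in controls. Its largest part was Aqp4, with means of 130 and 104 FPKM. Of the 9 tested 3 rose in limma: Aqp4, Slc1a3 and Slc1a2, with adjusted p of 0.0216, 0.0304 and 0.0464. The other 6 did not pass, and of these S100b and Aldoc were lower on average, with overlapping groups. Of all genes tested, 1.46% rose and 0.632% fell. Of 12 fibroblast and meningeal markers 6 were in the table, and Dcn, Lum, Dpt, Igf2, Slc6a13 and Pdgfra were not among its rows. Every listed gene reaches a mean of at least 0.5 FPKM in 1 of the groups. The summed fibroblast and meningeal level, mostly Ogn, ranged from 87.9 to 110.5 FPKM in AQP4-IgG and from 128 to 144 FPKM in controls. Ogn averaged 92.5 and 128 FPKM (adjusted p = 0.0979 in limma). Crabp2 lay the other way, at 1.19 and 0.763 FPKM without overlap, the other 4 overlapped between the groups, and 0 of the 4 tested passed. Of 11 mural markers 6 were in the table, and Rgs5, Kcnj8, Abcc9, Vtn and Des were not. Their sum, mostly Acta2, ranged from 2137 to 2496 FPKM in AQP4-IgG and from 2803 to 3085 FPKM in controls; Acta2 fell (adjusted p = 0.0243 in limma) and the other 5 did not pass. Of 11 endothelial markers only 3 were in the table, with a sum of 4.93 to 5.48 FPKM against 4.43 to 4.85 FPKM and 0 called. The choroid plexus and ependyma list, 5 of 7 in the table, summed to 48.8 to 55.1 FPKM against 40.7 to 47.6 FPKM, mostly Foxj1. Rarres2 rose (adjusted p = 0.0109 in limma) and the other 4 did not pass. The oligodendrocyte lineage list, 4 of 8 in the table, summed to 195 to 212 FPKM against 223 to 234 FPKM with 0 called. The microglia and macrophage list, 12 of 12 in the table, overlapped at 328 to 361 FPKM against 359 to 453 FPKM. Its median log2 fold change was -0.22, with Cx3cr1 lower (adjusted p = 0.0427 in limma). Without overlap, 4 of the 12 lay lower and 1 higher, against 8.58% and 10.4% of all genes. The higher one was Itgam, at 4.69 and 3.45 FPKM on average (adjusted p = 0.0707 in limma). The sums of the astrocyte, endothelial and choroid plexus lists were thus higher with AQP4-IgG without overlap, and those of the fibroblast, mural and oligodendrocyte lists lower. The part of any of these differences in the collagen and laminin values was not tested. In bulk libraries, fewer cells of a type and less RNA per cell cannot be told apart.

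Basement membrane chains made up most of the collagen and laminin message. They held 56.5% to 58.7% of the summed FPKM of the 29 genes across the 6 libraries, fibrillar chains 25.2% to 25.6% and the other collagens 15.9% to 17.8%. The highest mean over the 6 libraries was that of Col4a1, 136 FPKM, followed by Col5a2 with 97.1 FPKM and Col8a1 with 64.5 FPKM. The lowest was that of Lama4, 0.997 FPKM, which lay just under the mean of 1 FPKM required for the test. Just inside it were Col14a1, Col7a1 and Col8a2, with means of 1.05, 1.148 and 1.16 FPKM. Levels are per union of all annotated exons, so a gene with long, rarely used exons has a lower value.

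**Figure D1:**
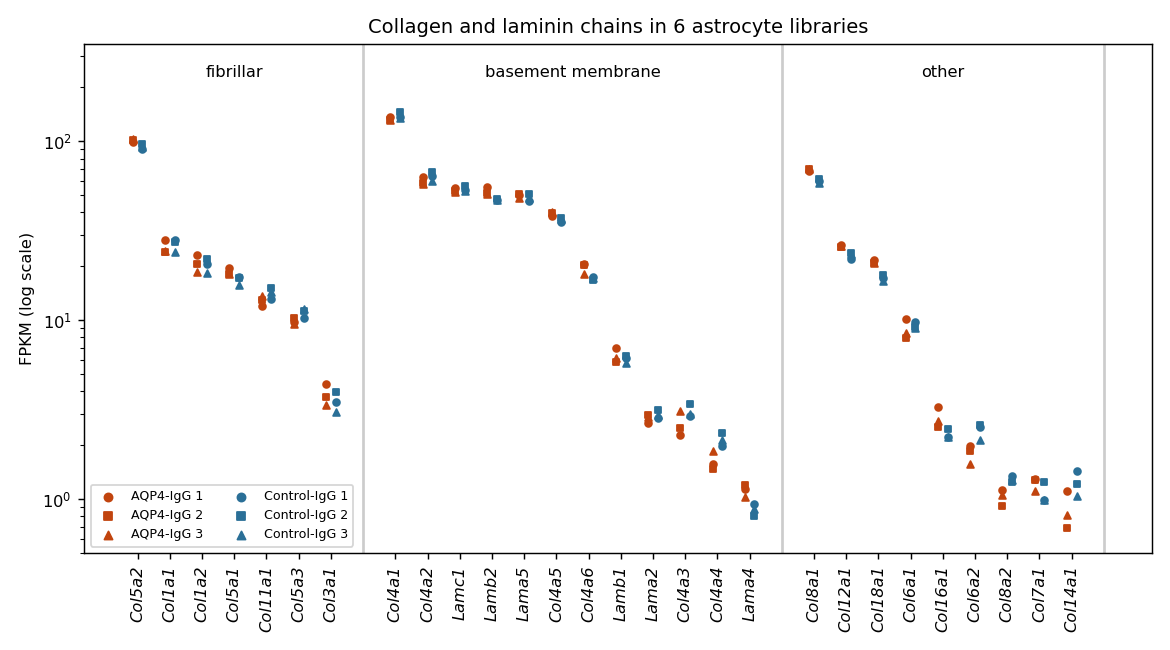
Level of each of 28 chains in FPKM on a logarithmic axis, grouped by class and ordered by mean, with 1 point per library (colour marks the IgG, shape the library number). Col4a1 lies highest at a mean of 136 FPKM and Lama4 lowest at 0.997 FPKM, and for most chains the points of the groups lie close together.

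The comparison of the groups asks which chains differed between cultures given AQP4-IgG and cultures given Control-IgG. In limma, 2 of the 28 tested members rose, 0 fell and 26 did not pass an adjusted p of 0.05. Of all 12334 genes tested, 2.09% were called, 1.46% as higher and 0.632% as lower. Both members that rose belong to the other collagens: Col18a1 rose 1.23-fold and Col8a1 1.16-fold. Of the 7 fibrillar and the 12 tested basement membrane chains, 0 passed; at an unadjusted p under 0.05, 3 and 4 of them did, and limma-voom on recovered reads called 0 and 2. Over all members 13 of 28 had an unadjusted p under 0.05 (46.4%), against 13.3% of all genes. All differences were small: the ratio of group means ranged from 0.71 to 1.23 over the tested members. The median log2 fold change of FPKM + 1 was 0.04 over the members and 2.3e-05 over all genes, with 15 members above 0 and 13 below.

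In 12 of the 28 tested members (42.9%) every library of one group lay above every library of the other, as did 19.0% of all genes tested. Of the 28, 9 were higher and 3 lower with AQP4-IgG, against 10.4% and 8.58% of all genes. The lower count is thus near the share over all genes. The higher ones were Col5a1, Col5a2, Col4a5, Col4a6, Lamb2, Col8a1, Col12a1, Col16a1 and Col18a1. The lower ones were Col4a4, Col6a2 and Col8a2. Lama4, below the filter, was also higher in each AQP4-IgG library than in any control library.

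**Figure D2:**
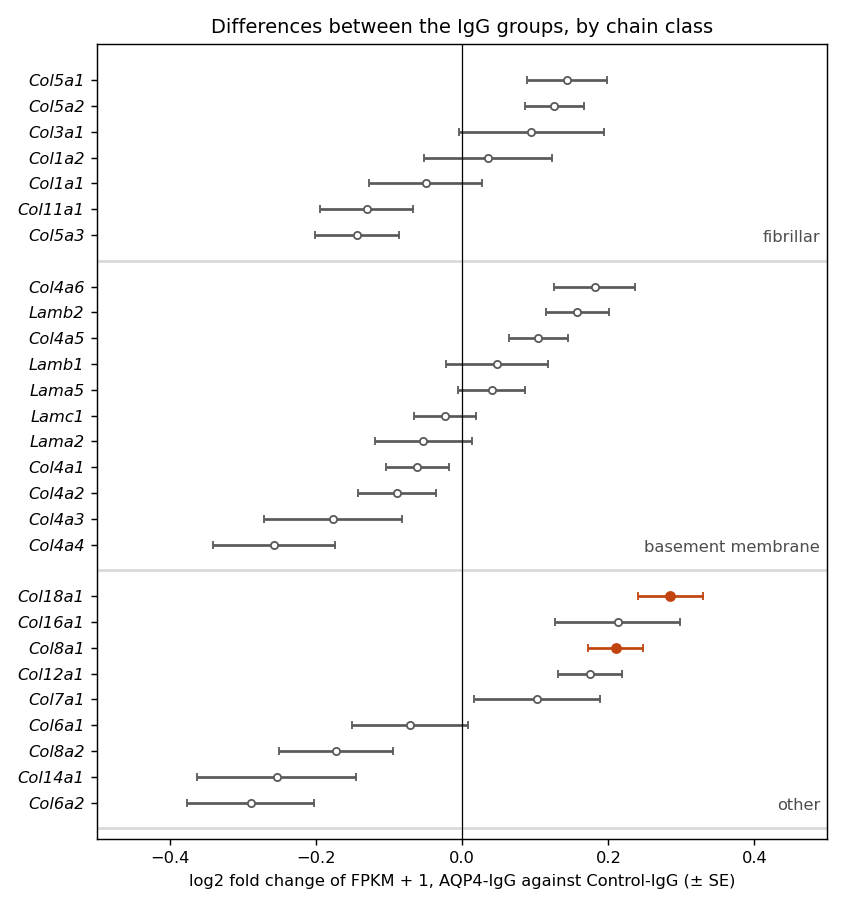
Log2 fold change of FPKM + 1 between AQP4-IgG and Control-IgG for 27 tested chains, by class and ordered by size, with bars of 1 SE. Filled points mark the 2 members past an adjusted p of 0.05, Col18a1 and Col8a1; each class holds chains on both sides of 0.

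Col18a1 encodes type XVIII collagen, a heparan sulfate proteoglycan of basement membrane zones whose cleaved end is the antiangiogenic fragment endostatin. It was counted among the other collagens, since only type IV and the laminins were classed here as basement membrane chains. The gene (ENSMUSG00000001435) lies on the minus strand of chromosome 10, 77052178 to 77166548 in GRCm38. Its level was 21.7, 20.96 and 20.8 FPKM in AQP4-IgG libraries 1 to 3 and 17.3, 17.8 and 16.5 FPKM in Control-IgG libraries 1 to 3. The groups did not overlap, and each spread was small against the gap between them. The means were 21.1 ± 0.47 and 17.2 ± 0.676 FPKM (SD, n = 3 each), which gave a log2 fold change of 0.28 with an SE of 0.045 (adjusted p = 0.0177 in limma). Between 2241 and 3120 reads stood behind each value. The call held in 10 of 14 alternative fits. It ended without AQP4-IgG 1 or 2 and without Control-IgG 2 or 3, with adjusted p of 0.0811, 0.0847, 0.0537 and 0.0675 in limma, while the log2 fold change stayed between 0.26 and 0.31.

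Col8a1 encodes the alpha-1 chain of type VIII, a short-chain, network-forming collagen of vessel walls and of the cornea. The gene (ENSMUSG00000068196) lies on the minus strand of chromosome 16, 57624258 to 57754737 in GRCm38. It stood at 67.8, 69.7 and 70.2 FPKM in AQP4-IgG and at 59.7, 61.4 and 58.2 FPKM in controls. Again the lowest AQP4-IgG library exceeded the highest control. The means were 69.2 ± 1.24 and 59.7 ± 1.6 FPKM, which gave a log2 fold change of 0.21 with an SE of 0.038 (adjusted p = 0.0305 in limma). This call held in 8 of 14 alternative fits. It ended without the trend in limma (adjusted p = 0.089) and, among the 6 fits that leave out 1 library, in all but the one without Control-IgG 1. With AQP4-IgG 1, 2 or 3 left out, the adjusted p in limma was 0.0834, 0.148 or 0.0903. With Control-IgG 2 or 3 left out it was 0.0767 or 0.121. Its partner Col8a2, the alpha-2 chain, was scarce and did not pass: 1.12, 0.917 and 1.06 FPKM in AQP4-IgG and 1.35, 1.24 and 1.28 FPKM in controls, lower in each AQP4-IgG library (log2 fold change -0.17, adjusted p = 0.393 in limma). Between 84 and 123 reads stood behind each value of Col8a2.

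Col12a1 encodes the main chain of a fibril-associated collagen that lies along type I fibrils. It measured 26.4, 25.7 and 26.1 FPKM in AQP4-IgG and 21.9, 23.8 and 23.3 FPKM in controls. The groups did not overlap, but in limma it did not pass (log2 fold change 0.18, SE 0.044, adjusted p = 0.0998). Col16a1, also fibril-associated, was 3.27, 2.52 and 2.75 FPKM against 2.23, 2.47 and 2.22 FPKM (log2 fold change 0.21, adjusted p = 0.325 in limma); its AQP4-IgG 1 value stood well above the others, and without it the log2 fold change was 0.14. Col14a1, a related chain, averaged 0.871 ± 0.217 FPKM in AQP4-IgG and 1.23 ± 0.193 FPKM in controls, with overlapping libraries and an adjusted p of 0.358 in limma. Col7a1, the anchoring-fibril collagen, averaged 1.22 ± 0.104 and 1.07 ± 0.146 FPKM (adjusted p = 0.72 in limma).

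Type VI collagen forms beaded microfibrils from different alpha chains, and its chains in the table lay at different levels. Col6a1 was 10.1, 7.95 and 8.5 FPKM in AQP4-IgG and 9.73, 9.13 and 9.07 FPKM in controls, so the control libraries lay within the range of the AQP4-IgG ones (adjusted p = 0.808 in limma). Col6a2 was 1.97, 1.87 and 1.56 FPKM against 2.53, 2.59 and 2.15 FPKM. All of its AQP4-IgG values lay below all control values, at a log2 fold change of -0.29 with an SE of 0.087 (adjusted p = 0.167 in limma), the most negative among the tested members. These genes lie 85.2 kb apart on the same strand of chromosome 10.

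As a class, the other collagens summed to 135, 132 and 133 FPKM in AQP4-IgG and to 117, 121 and 115 FPKM in controls. The sums did not overlap and differed 1.13-fold. A two-sided exact permutation test gave p = 0.1, the smallest that 3 libraries against 3 allow. Col8a1 alone held about as much of each sum as the remaining 8 genes together, so the sum mostly follows the most abundant chains. The fibrillar sums were 195, 192 and 191 FPKM against 183, 193 and 179 FPKM (exact permutation p = 0.3), and the basement membrane sums 440.2, 426 and 422 FPKM against 422, 444 and 418 FPKM (exact permutation p = 0.9). Both of these overlapped. Control-IgG 2, the library with the fewest reads, had the highest control sum in all 3 classes.

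**Figure D3:**
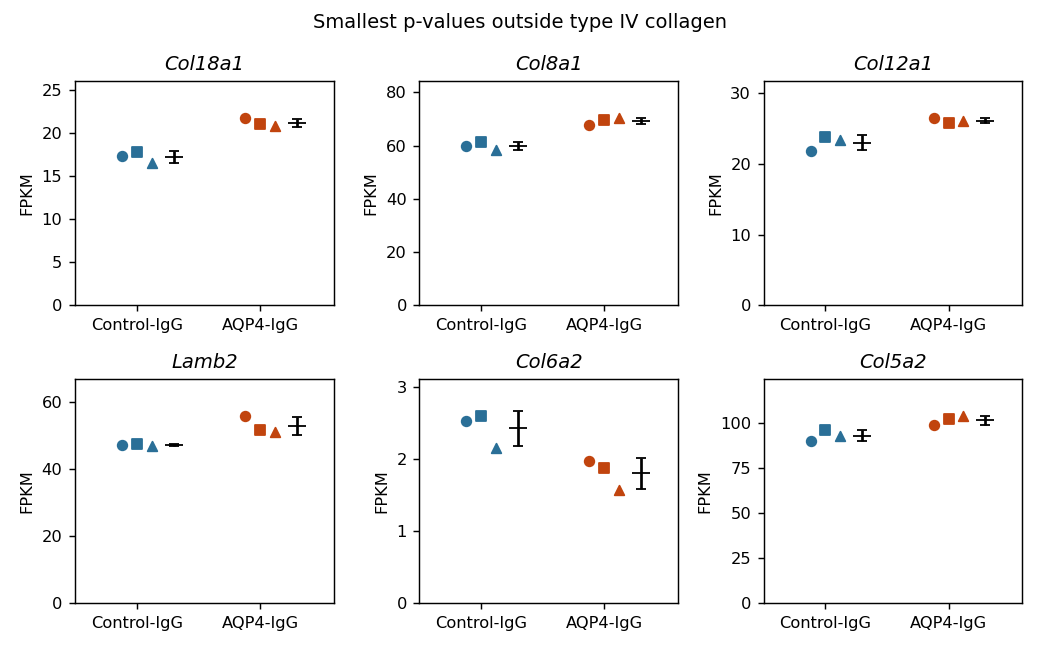
Level in FPKM in each library, from 0, for the 6 chains with the smallest p-values outside type IV collagen, with the mean and SD (n = 3) beside the points. Col18a1 and Col8a1 passed the test; in each of the 6 panels the groups do not overlap, and Col6a2 is the one that lay lower with AQP4-IgG.

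Among the fibrillar chains, type V was the most abundant. Type V collagen sits inside heterotypic fibrils with type I and limits their diameter. Its alpha-2 chain, Col5a2, measured 98.6, 102 and 104 FPKM in AQP4-IgG and 90.0, 96.0 and 92.3 FPKM in controls. The groups did not overlap, with a log2 fold change of 0.13 that did not pass (SE 0.04, adjusted p = 0.193 in limma). Its alpha-1 partner Col5a1 was 19.5, 18.1 and 18.2 FPKM against 17.4, 17.1 and 15.7 FPKM (log2 fold change 0.14, SE 0.054, adjusted p = 0.291 in limma), likewise higher in each AQP4-IgG library. The third chain, Col5a3, lay in the other direction: 9.81, 10.3 and 9.5 FPKM against 10.2, 11.3 and 11.5 FPKM, with overlapping libraries (log2 fold change -0.14, adjusted p = 0.316 in limma). Col11a1, of the related type XI, was 12.03, 13.0 and 13.7 FPKM against 13.2, 15.1 and 14.4 FPKM (log2 fold change -0.13, adjusted p = 0.444 in limma), and without AQP4-IgG 1 its log2 fold change was -0.09.

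Type I collagen, the bulk collagen of fibrous tissue and scars, did not separate the groups. Col1a1 was 28.1, 24.0 and 24.3 FPKM in AQP4-IgG and 28.1, 27.3 and 23.9 FPKM in controls (log2 fold change -0.05, SE 0.077, adjusted p = 0.873 in limma). Col1a2 was 23.0, 20.6 and 18.6 FPKM against 20.5, 21.9 and 18.2 FPKM (log2 fold change 0.04, SE 0.087, adjusted p = 0.929 in limma). In both genes the spread within a group exceeded the difference between the means. Col3a1, the type III chain that accompanies type I in soft tissue, averaged 3.82 ± 0.509 and 3.51 ± 0.448 FPKM (adjusted p = 0.782 in limma). It lies tail to tail with Col5a2 on chromosome 1, 24.6 kb away. With exon-union lengths, Col5a2 exceeded it 22.5- to 30.7-fold in FPKM over the libraries.

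The type I trimer joins a pair of alpha-1 chains to an alpha-2 chain. The ratio of Col1a1 to Col1a2 was 1.22, 1.17 and 1.31 with AQP4-IgG and 1.37, 1.25 and 1.31 with Control-IgG, and the groups overlapped (two-sided exact permutation p = 0.2, adjusted p = 0.25 over 5 chain ratios tested). Which of these chains is the higher depends on the length used. The union of annotated exons is 6563 bases for Col1a1 and 12426 for Col1a2, whereas the longest coding transcripts are 5930 and 5348 bases, and with the latter the mean ratio of 1.27 becomes 0.605. Such a length factor is the same in every library, so it does not affect the comparison of groups.

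Type IV collagen is encoded by 6 genes that stand as 3 head-to-head pairs, each pair reading outward from a shared stretch. All 6 were in the table. Col4a1 and Col4a2, the chains of the common network, lie on chromosome 8 with starts 21 bases apart, so that their annotated first exons overlap by 22 bases. Col4a3 and Col4a4 lie on chromosome 1 with 71 bases between them, and Col4a5 and Col4a6 on chromosome X with 1308 bases between them. The members of each pair lay on the same side of 0 in the comparison of groups. The stretches between or before the starts are shown because the members of a pair share, or nearly share, their start region. They are RefSeq promoter sequence of GRCm38.p6, trimmed to leave out the annotated first exons beyond the 22 shared bases, and 21 of the 29 chains had an entry in that table. Capitals mark any GGGCGG (the GC box, which Sp1-family factors bind), CCAAT or TATAAA on either strand.
Col4a1 and Col4a2, overlap of the first exons, chr8:11312805-11312826, plus strand: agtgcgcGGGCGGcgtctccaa
Col4a3 and Col4a4, between the starts, chr1:82586850-82586920, minus strand: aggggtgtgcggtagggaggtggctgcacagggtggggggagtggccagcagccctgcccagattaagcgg
Col4a6, before its start, chrX:141474077-141474326, minus strand: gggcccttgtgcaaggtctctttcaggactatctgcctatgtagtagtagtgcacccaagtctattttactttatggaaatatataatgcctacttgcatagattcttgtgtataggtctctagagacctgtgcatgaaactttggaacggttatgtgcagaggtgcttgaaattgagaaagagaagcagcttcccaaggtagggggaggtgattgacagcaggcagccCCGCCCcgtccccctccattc
Col4a5, before its start, chrX:141475169-141475384, plus strand: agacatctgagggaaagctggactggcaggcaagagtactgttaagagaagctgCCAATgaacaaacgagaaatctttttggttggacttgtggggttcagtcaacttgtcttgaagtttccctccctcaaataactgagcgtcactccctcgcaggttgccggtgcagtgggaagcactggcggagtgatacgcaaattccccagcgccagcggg

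These stretches differ in composition. The overlap of Col4a1 and Col4a2 is 72.7% G and C and holds 1 GGGCGG, as do 4.09% of the 32851 RefSeq promoter windows of mouse genes over the same 22 positions. The stretch between Col4a3 and Col4a4 is 69.0% G and C and holds 0 matches to the 3 motifs. The stretch before Col4a6 is 47.6% G and C with 1 GGGCGG on the opposite strand, a motif found in 32.7% of all windows over those 250 positions. That before Col4a5 is 52.3% G and C with 1 CCAAT, found in 30.5% of all windows over its 216 positions. A match is a description of the letters and not a binding site.

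Col4a1 measured 136, 132 and 131 FPKM in AQP4-IgG and 136, 146 and 134 FPKM in controls. Col4a2 measured 63.4, 58.6 and 57.8 FPKM against 64.3, 67.1 and 60.1 FPKM. Both overlapped between the groups, with log2 fold changes of -0.06 and -0.09 and adjusted p of 0.645 and 0.564 in limma, and Control-IgG 2 was the highest library for each. The ratio of Col4a1 to Col4a2, whose common trimer has a pair of alpha-1 chains and an alpha-2 chain, was 2.14, 2.25 and 2.27 with AQP4-IgG and 2.12, 2.18 and 2.23 with Control-IgG (two-sided exact permutation p = 0.4, adjusted p = 0.4 over the 5 ratios). With the longest coding transcript in place of the exon union its mean of 2.2 becomes 2.42. Because the labels do not say whether reads were counted by strand, reads within the 22 shared bases cannot be assigned, which is 0.295% of the exon length of Col4a1.

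Col4a3 and Col4a4, which with Col4a5 form the specialised network of the kidney filter, were low. Col4a3 was 2.27, 2.51 and 3.09 FPKM in AQP4-IgG and 2.9, 3.38 and 2.98 FPKM in controls, with overlapping libraries (log2 fold change -0.18, SE 0.094, adjusted p = 0.494 in limma). Col4a4 was 1.57, 1.48 and 1.87 FPKM against 1.99, 2.33 and 2.14 FPKM. Its AQP4-IgG libraries all lay below the control libraries, and its log2 fold change of -0.26 did not pass (SE 0.084, adjusted p = 0.202 in limma). Of the exon length of Col4a3, 5.65% is shared with another annotated gene.

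Col4a5 and Col4a6, which form a further type IV trimer found in smooth muscle and other basement membranes, lay higher with AQP4-IgG. Col4a5 was 38.1, 39.7 and 40.1 FPKM against 35.5, 37.2 and 36.8 FPKM (log2 fold change 0.10, SE 0.04, adjusted p = 0.293 in limma). Col4a6 was 20.6, 20.2 and 18.0 FPKM against 17.4, 16.8 and 17.3 FPKM (log2 fold change 0.18, SE 0.055, adjusted p = 0.174 in limma). Neither overlapped between the groups and neither passed. For Col4a6 the gap was narrow, since AQP4-IgG 3 lay close to the highest control library.

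**Figure D4:**
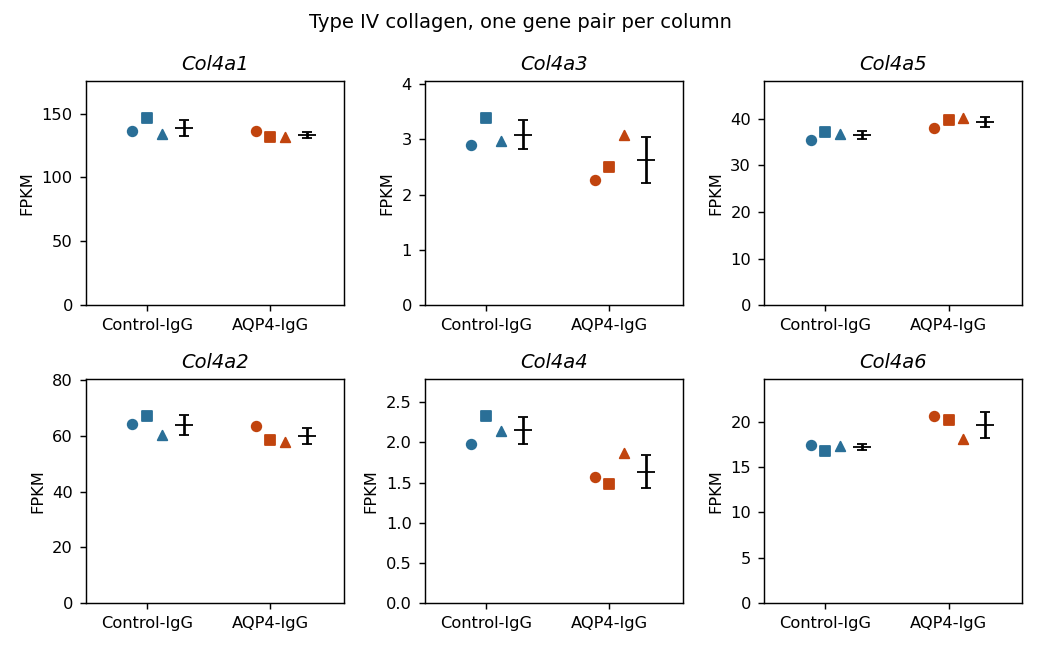
Level in FPKM in each library, from 0, for the 6 type IV collagen genes, 1 head-to-head pair per column, with the mean and SD (n = 3) beside the points. The groups overlap for Col4a1, Col4a2 and Col4a3, Col4a4 lies lower and Col4a5 and Col4a6 lie higher in all 3 AQP4-IgG libraries, and 0 of the 6 passed the test.

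The laminin chains measured most highly were Lama5, Lamb2 and Lamc1, at nearly equal FPKM; together these chains can form the trimer known as laminin-521. Lamb2, the beta-2 chain, was 55.7, 51.6 and 50.9 FPKM in AQP4-IgG and 47.0, 47.5 and 46.9 FPKM in controls. The groups did not overlap and the control libraries lay within 1 FPKM of each other, but in limma the gene did not pass (log2 fold change 0.16, SE 0.043, adjusted p = 0.13). Lama5, the alpha-5 chain, was 50.3, 50.8 and 48.4 FPKM against 46.2, 50.9 and 48.2 FPKM (log2 fold change 0.04, adjusted p = 0.81 in limma). Lamc1, the gamma-1 chain of most laminins, was 54.7, 53.1 and 52.0 FPKM against 53.3, 56.6 and 52.7 FPKM (log2 fold change -0.02, adjusted p = 0.894 in limma). Both overlapped.

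Other laminin chains were lower. Lamb1, the beta-1 chain, averaged 6.33 ± 0.616 FPKM in AQP4-IgG and 6.08 ± 0.267 FPKM in controls, and the ratio of Lamb1 to Lamb2 was 0.12 and 0.129 (two-sided exact permutation p = 0.2, adjusted p = 0.25 over the 5 ratios). The longest coding transcripts as lengths take its mean from 0.124 to 0.197. Lama2, the alpha-2 chain that astrocytes are known to supply to vascular basement membranes, averaged 2.83 ± 0.145 and 2.97 ± 0.157 FPKM. Both chains overlapped between the groups, with adjusted p of 0.867 and 0.832 in limma.

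Lama4, the alpha-4 chain typical of endothelial basement membranes, was 1.14, 1.19 and 1.03 FPKM in AQP4-IgG and 0.941, 0.8 and 0.88 FPKM in controls. It rested on 173 to 294 reads. When no filter on low values was applied, limma gave a log2 fold change of 0.18 with an SE of 0.08 (adjusted p = 0.406). The ratio of Lama5 to Lama4 was 44.1, 42.5 and 47.0 against 49.1, 63.6 and 54.7, and that of Lama2 to Lama4 was 2.34, 2.47 and 2.78 against 3.01, 3.93 and 3.35. With the longest coding transcripts as lengths, the mean of the former over the 6 libraries goes from 50.2 to 25.1 and that of the latter from 2.98 to 2.54. Neither ratio overlapped between the groups. The exact permutation p of each was 0.1, the smallest possible here, and 0.25 adjusted over the 5 ratios. Both ratios share the scarce Lama4, which itself did not overlap, whereas Lama5 and Lama2 did, so they are not separate results.

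The number of chains called differed between ways of testing. In the table the authors deposited, 5 of the 29 chains have an adjusted p under 0.05, against 2.91% of its 14147 genes. They are Col18a1 (0.00342), Col8a1 (0.00479), Col5a2 (0.0116), Col12a1 (0.0166) and Lamb2 (0.0495). The same deposited table marks 29 of the 29 as not regulated. Limma-voom on recovered reads called 6 of 28, against 4.28% of 11540 genes. It called Col18a1, Col8a1, Col12a1 and Lamb2 as higher, with adjusted p of 0.00104, 0.00332, 0.0177 and 0.0461 in limma-voom. It called Col6a2 and Col4a4 as lower, with log2 fold changes of -0.43 and -0.39 and adjusted p of 0.028 and 0.0289 in limma-voom. Voom's log2 fold changes add no FPKM of 1 to the level and so are larger for these low genes.

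Genes that process procollagen included some that rose. Of 35 genes listed for collagen processing 32 were tested, of which 3 rose (1.46% of all genes tested did), 0 fell and 29 did not pass, with a median log2 fold change of 0.03. All 3 act on the ends of procollagen, though not every listed gene of that kind rose. Bmp1, the protease that removes the carboxyl propeptide, was 19.9, 18.9 and 18.6 FPKM in AQP4-IgG and 15.6, 15.2 and 15.1 FPKM in controls (log2 fold change 0.31, adjusted p = 0.0125 in limma). Adamts14, an aminopropeptide protease, was 10.3, 10.7 and 10.1 FPKM against 7.88, 7.6 and 6.64 FPKM (log2 fold change 0.44, adjusted p = 0.0141 in limma). Pcolce2, an enhancer of the carboxyl protease, was 2.88, 3.1 and 2.73 FPKM against 2.01, 1.97 and 1.89 FPKM (log2 fold change 0.40, adjusted p = 0.0243 in limma). None of these overlapped between the groups. Leaving out AQP4-IgG 1 or 2 or Control-IgG 2 ended each of these calls, as did leaving out Control-IgG 3 for Bmp1 and Pcolce2, with adjusted p of up to 0.0645 for Bmp1, 0.075 for Adamts14 and 0.127 for Pcolce2 in limma. Relatives of these genes on the list did not rise. Tll1, a protease related to Bmp1, averaged 1.6 and 1.86 FPKM, lower without overlap (adjusted p = 0.482 in limma). Pcolce averaged 9.4 and 9.32 FPKM with overlap (adjusted p = 0.982 in limma). Over the 32 tested, 10 lay higher and 5 lower without overlap, against 10.4% and 8.58% of all genes. The list's summed level was 2284 to 2341 FPKM in AQP4-IgG and 2287 to 2317 FPKM in controls.

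Partners of the chains in the basement membrane and on the cell surface were counted next. Of 9 tested basement membrane components other than collagens and laminins, 1 rose, 0 fell and 8 did not pass (1.46% of all genes tested rose and 0.632% fell), with a median log2 fold change of -0.04. The one that rose was the proteoglycan gene Agrn, whose protein binds laminin, at 38.0, 36.4 and 34.9 FPKM in AQP4-IgG and 27.7, 27.3 and 25.6 FPKM in controls (adjusted p = 0.00522 in limma), and it passed in all 14 alternative fits. Of 16 tested genes on the list of collagen and laminin receptors 2 rose, 1 fell and 13 did not pass (median log2 fold change 0.05). Of the 16, 4 lay higher and 3 lower without overlap, against 10.4% and 8.58% of all genes. The lower ones include Itgb1, at 490 and 562 FPKM on average (adjusted p = 0.132 in limma). Itga2, below the filter, averaged 0.675 and 0.358 FPKM without overlap. Itga3, the alpha-3 integrin that pairs with beta-1 to bind laminins with an alpha-5 chain, fell: it was 140.5, 140.1 and 149 FPKM against 162, 169 and 172 FPKM (log2 fold change -0.23, adjusted p = 0.034 in limma). The 2 listed genes that rose do not encode integrins: Sdc3 encodes a syndecan and Cd47 an integrin-associated protein. Sdc3 rose 1.24-fold and Cd47 1.21-fold, with adjusted p of 0.0153 and 0.0416 in limma. Of 21 tested genes of the TGF-beta axis, which drives collagen expression in many tissues, 2 rose, 0 fell and 19 did not pass (median log2 fold change 0.04). They were Fn1, encoding fibronectin, at 197, 184 and 194 FPKM against 168, 162 and 159 FPKM, and Ltbp1, which tethers latent TGF-beta to the matrix, at 9.53, 9.24 and 9.52 FPKM against 7.91, 7.81 and 8.0 FPKM. Their adjusted p were 0.029 and 0.044 in limma. Without overlap, however, 6 of the 21 lay lower with AQP4-IgG and 3 higher, against 8.58% and 10.4% of all genes. The lower one with the smallest p was Ctgf, at 369 and 422 FPKM on average (adjusted p = 0.0617 in limma). Of the 6 fits that leave out 1 library, Itga3 and Sdc3 passed in 2, those without AQP4-IgG 3 or Control-IgG 1. Cd47 and Fn1 passed in 1, that without Control-IgG 1, and Ltbp1 passed in 0. The highest adjusted p in these limma fits was 0.158 for Itga3, 0.0847 for Sdc3, 0.151 for Cd47 and Ltbp1 and 0.121 for Fn1.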

How the data were processed

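RNA-seq was done on 3 AQP4-IgG and 3 Control-IgG libraries of primary mouse astrocytes. Library preparation used a SMARTer mRNA-seq kit, per the labels' protocols, and the submitters' processing notes name GRCm38 and mm10. For the aligner, counter, annotation and strand setting: not given in the sources used here. The deposited table names no unit for its 6 value columns. They were taken as FPKM as deposited by the authors, because values times the M21 union exon length were whole multiples of 1 step, a read, per library (within 0.1 reads) for 99.0% to 99.1% of values under 200 reads per library, over 13296 genes with M21 coordinates. The 3 case columns carry a disease abbreviation and were taken as AQP4-IgG 1 to 3, the only other group. The log2 fold changes and p-values in the deposited table are the authors' own, by a method not stated.

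The test was limma 3.58.1 (R 4.3.3) on log2(FPKM + 1), with the trend and robust options of its variance estimation. The added 1 understates the change of low genes. The 12334 genes averaging 1 FPKM or more were tested. Benjamini-Hochberg adjustment covered all of them, and the threshold was 0.05. Chain ratios and class sums were tested by exact permutation. Other scalings, filters, pseudocounts and variance options, a replicate block, limma-voom on the recovered reads and leaving out each library were tried as alternatives. Chains past the threshold, the 6 most abundant and the 3 with the smallest p per class, 20 in all, were described in every library, and from each pathway list the genes past the threshold. One tested chain that did not pass is not reported here, though it is in every count and sum. Other chains shown per library were chosen after their values were seen. The members and gene lists were chosen with earlier results of these data known. The fit was tested on simulated data with known upward changes, of which it recovered 2% at 1.1-fold, 52% at 1.25-fold and 86% at 1.5-fold. The simulation gave every gene the same assumed spread between libraries, not estimated from these data, so recovery here may differ. A chain that did not pass may therefore still differ by an amount of the size seen here. Replicate libraries differed by more than sampling noise (chi-square per gene of 3.9 to 7.23). Protein sequences were not used here.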

Additional observations from a re-analysis of the deposited data

How the results depend on the processing

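The count of 2 chains higher, both among the other collagens, and 0 lower was the same with median scaling, without robust variance estimation, without a filter, with a mean of at least 10 FPKM and with a pseudocount of 0.1. Without the trend it was 1 higher (1 other collagen). Limma-voom on recovered reads gave 4 higher and 2 lower, of which 2 were basement membrane chains and 4 other collagens. Leaving out 1 library at a time gave 0 to 2 higher (0 to 2 other collagens). With the replicate block the count was again 2 higher and 0 lower, while 607 genes were called in all against 258. Whether same-numbered libraries were paired cannot be settled from these values. Their deviations correlated at 0.2, 0.0089 and 0.202, and those of different-numbered libraries of the groups at -0.268 to 0.0818. AQP4-IgG 2 correlated better with Control-IgG 1 (0.0667) than with its own number.

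Of 276 alternative fits of the 20 chains described, 259 kept their direction and side of the threshold. Another 10 lost a call, 4 gained one and 3 reversed. All 10 losses were of Col18a1 or Col8a1, which kept their calls in 10 and 8 of 14 fits each. The remaining chains had no call to lose, so the 259 say little about how firm the calls are. The reversals were of values near 0: Lamc1 without Control-IgG 2, among log2 fold changes of -0.0434 to 0.00691 with 1 library left out, and Col1a2 without AQP4-IgG 1 or Control-IgG 3, among -0.0397 to 0.107. The log2 difference of the basement membrane sum, 0.004, was -0.0112 with median scaling and -0.014 to 0.031 with 1 library left out. The cause of these changes was not tested. Depth limits the scarcest chains most: Col8a2 and Col14a1 rested on as few as 84 and 99 reads in a library.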

Other observations

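Some chain ratios, chosen after their values were seen and so given without a test, separated the libraries by group. Col8a1 exceeded Col8a2 by 60.6-, 76.0- and 66.3-fold in FPKM with AQP4-IgG and by 44.3-, 49.4- and 45.5-fold with Control-IgG. Because Col8a1 was higher and Col8a2 lower in each AQP4-IgG library, this ratio had to separate the groups. Col6a1 exceeded Col6a2 by 5.12-, 4.26- and 5.44-fold with AQP4-IgG and by 3.85-, 3.52- and 4.22-fold with Control-IgG. The sum of Col4a5 and Col4a6 was 15.3, 15.03 and 11.7 times that of Col4a3 and Col4a4 with AQP4-IgG and 10.8, 9.45 and 10.6 times with Control-IgG. In each case every AQP4-IgG library exceeded every control library. The sizes of these ratios depend on the lengths used. For Col6a1 and Col6a2 the exon unions are 4380 and 8326 bases and the longest coding transcripts 4100 and 4653. With the latter the excess of Col6a1 would be smaller, by the same factor in every library. Within a pair, the ratio of Col4a5 to Col4a6 overlapped between the groups, from 1.85 to 2.22 over the 6 libraries. The ratios of Col5a2 to Col5a1 and of Col5a2 to Col3a1 overlapped as well.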
